A study of Mus musculus with 14 samples.

Results

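The cytosolic ribosomal protein genes encode the proteins that, with the ribosomal RNAs, build the small and the large subunit of the ribosome. They were examined here in the blood of mouse embryos that carry the Cbfb-MYH11 fusion or lack Cbfb. Members were the genes whose symbol begins with Rpl or Rps and a number, plus Rpsa, Rplp0, Rplp1 and Rplp2, where a probe set carries that symbol alone. Kinases of the Rps6k family and pseudogenes were left out. The rule gave 49 of the 18194 genes of the array, 23 of the small and 26 of the large subunit, with 105 probe sets between them. Each gene was read by its probe set with the highest mean. A further 28 ribosomal protein genes are read only by probe sets that they share with other symbols, and are not members. Of these, 24 share them with predicted genes or pseudogenes alone.

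Expression was measured on 14 Affymetrix mouse arrays with RNA of peripheral blood from embryos at E12.5. Mating of Cbfb-MYH11 chimeras with C57/Bl6 females gave the Cbfb+/MYH11 embryos (4 arrays), with 1 Cbfb allele carrying the fusion, and their WT littermates (4 arrays). Mating of Cbfb+/- parents gave Cbfb-/- embryos and, as their littermates, Cbfb+/+ embryos, with 3 arrays each. Neither cross received any agent. Cbfb is the subunit that pairs with the Runx transcription factors. The fusion, known from a form of human acute myeloid leukaemia, attaches part of a smooth muscle myosin to it. The alleles are germline changes and not limited to a cell type. Blood of 8 to 10 embryos of a genotype was pooled, and arrays of 1 group are labelled as technical replicates. The p-values therefore measure only the spread between these arrays, which may be technical.

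In a growing cell ribosomal protein genes are among the most strongly transcribed, and their messages are translated in concert. Many of these messages begin with a run of pyrimidines at the 5′ end, the TOP motif, through which the TOR pathway and Larp1 control their translation. Red cell precursors depend on ribosome supply for globin synthesis. In humans, loss of 1 copy of any of several of these genes causes Diamond-Blackfan anaemia, a failure of red cell production. A few members are paralogues, further genes for a related protein, whose use can differ between tissues.

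The values are log2 of the probe set signal after RMA, the normalization made by the authors. The median of an array lay between 4.27 and 4.46, and the highest value on any array was 14.55. Genes that reached a log2 value of 6 on at least 3 arrays were tested with limma, 7393 in all and 43 of the 49 members. Calling a gene took a Benjamini-Hochberg adjusted p under 0.05 together with a 1.5-fold change or more. Cbfb itself, whose only probe set has no known place relative to the targeted exons, lay at 6.91 to 8.56 in Cbfb+/MYH11 and 6.57 to 8.31 in WT. It lay at 6.80 to 7.03 in Cbfb-/- and 6.27 to 6.56 in Cbfb+/+, so it checks no label. Arrays 1 and 2 of the first cross stood apart from arrays 3 and 4 in both genotypes. Across the members, the SD of the log2 differences was 0.0538 to 0.168 within such a pair and 0.305 to 0.421 between pairs, against 0.0583 to 0.100 in the second cross. The members' changes are therefore given within the pairs as well. Red cell markers, among them the embryonic globins, had the level of a blood sample, with a median of 13.1 to 13.6 on every array, and no lymphocyte marker passed the filter.

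The members share features of their promoters that the rule did not use. RefSeq (GRCm38.p6) gave 51 promoter windows for 43 members, each from 250 bases before to 50 bases after an annotated start. The first set of sequences shows the start itself, since a C followed by at least 4 further pyrimidines at that base is the letter pattern of a TOP message. That pattern stood at the start in 8 of the 51 windows (15.7%), against 2.51% of the 32851 promoters in the table. The 8 windows belong to Rpl14, Rpl35, Rpl38, Rplp2, Rps10, Rps18, Rps27 and Rps6. Each sequence runs from 10 bases before the start for 30 bases, 5′ to 3′, and the capitals mark the run of pyrimidines that begins at the annotated start. Rpl22l1, the member with the largest rise in both mutants, is shown for contrast and has no such run at that base. A run of pyrimidines begins at its next base. The pattern was searched at the annotated base alone, so windows without it are not shown to lack a TOP start nearby.
Rps18, chr17:33955646-33955675, minus strand: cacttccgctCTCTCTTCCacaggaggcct
Rpl14, chr9:120571507-120571536, plus strand: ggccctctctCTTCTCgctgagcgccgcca
Rps6, chr4:86857348-86857377, minus strand: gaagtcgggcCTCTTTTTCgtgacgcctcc
Rpl35, chr2:39005112-39005141, minus strand: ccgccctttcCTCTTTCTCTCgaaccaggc
Rpl38, chr11:114668570-114668599, plus strand: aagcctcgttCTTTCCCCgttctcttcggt
Rplp2, chr7:141447641-141447670, plus strand: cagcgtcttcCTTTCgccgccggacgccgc
Rps10, chr17:27635225-27635254, minus strand: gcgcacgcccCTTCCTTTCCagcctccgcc
Rpl22l1, chr3:28805498-28805527, plus strand: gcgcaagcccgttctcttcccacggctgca

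The letters CGGAAG, the core that ETS family factors recognise, were searched on both strands of the whole window. They occurred in 31 of the 51 member windows (60.8%), from 30 genes, and in 16.9% of all promoters. TATAAA, searched in the same way and unable to overlap CGGAAG on either strand, occurred in 6 of 51 (11.8%) and in 13.6% of all. A match of letters does not show that a factor binds. The 100 bases before the start are printed for 3 of the genes that rose in both mutants, with CGGAAG or its complement on the printed strand in capitals. Rps18 has 3 matches in this stretch, Rpl37 has 1 and Rpl22l1 has none.
Rps18, chr17:33955666-33955765, minus strand: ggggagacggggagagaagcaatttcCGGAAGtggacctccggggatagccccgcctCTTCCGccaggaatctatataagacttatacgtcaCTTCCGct
Rpl37, chr15:5116513-5116612, plus strand: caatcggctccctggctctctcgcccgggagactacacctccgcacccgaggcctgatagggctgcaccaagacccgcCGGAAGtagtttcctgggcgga
Rpl22l1, chr3:28805408-28805507, plus strand: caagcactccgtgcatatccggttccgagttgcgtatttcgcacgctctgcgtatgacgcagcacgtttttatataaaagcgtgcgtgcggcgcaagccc

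The first comparison sets Cbfb+/MYH11 embryos against WT. With pooled blood and technical replicates, it cannot tell the fusion apart from a difference between blood pools. In this comparison, 17 of the 43 tested members were called higher (39.5%) and 0 lower. Of all tested genes, 30.5% were called higher and 5.63% lower. No member was lower at an unadjusted limma p under 0.05 either, and 34 were higher at that level. The members' median log2 change was 0.46, against 0.26 over all tested genes, and 40 of 43 changes were positive. For all tested genes, the shares at that unadjusted level and with a positive change are not given here, and their median was also above 0. In 29 members every Cbfb+/MYH11 array lay above every WT array, which held for 39.5% of all tested genes, and in 1 every array lay below (13.6%). The share of members called is not far from that of all genes. The size of the changes differed widely between members, from -0.32 for Rpl27a to 1.96 for Rpl22l1. In a bulk sample, more cells of a type and more RNA per cell cannot be told apart.

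The changes depend on how the arrays are scaled. The median of the members on an array was 12.56 to 12.82 in Cbfb+/MYH11 and 12.03 to 12.47 in WT. The median of all tested genes was 6.99 to 7.15 and 6.59 to 6.87. Quantile normalization of the table moved the median of all tested genes from 0.26 to -0.02, and centring each array on its median moved it to 0.37. The members' median moved with it, to 0.24 and 0.57. Relative to all genes the members' median thus stood at 0.20, 0.27 and 0.20 under the 3 scalings. It depended more on the filter. With the filter at a log2 value of 7 the members' median stood only 0.07 above that of all genes, and with no filter 0.53. In Cbfb-/- against Cbfb+/+ these values were 0.06 and 0.27, against 0.10 with the filter at 6. Without the fold floor 32 members were called higher (74.4%), and 45.3% of all genes. With quantile normalization 10 members were called higher and 17.7% of all genes. Of all calls in this comparison 84.4% were higher as deposited, 55.6% after quantile normalization and 91.0% after centring.

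Paralogues were tested for 4 members. Rpl22l1 encodes the paralogue of Rpl22 and is known from blood cell development. In Cbfb+/MYH11, arrays 1 to 4 gave log2 values of 9.94, 9.92, 10.63 and 10.57, and in WT 7.48, 7.82, 8.91 and 9.0. Every Cbfb+/MYH11 array was above every WT array, and arrays 3 and 4 were above arrays 1 and 2 in both genotypes. Rpl22l1 was higher 3.90-fold (95% interval 2.49 to 6.12, limma adjusted p = 0.000134), with log2 means of 10.27 ± 0.39 and 8.30 ± 0.77 (SD, n = 4 each). Within arrays 1 and 2 its log2 change was 2.28, and within arrays 3 and 4 it was 1.65. Rpl22 itself, the common form of this large subunit protein, lay at 12.49, 12.61, 12.57 and 12.61 in Cbfb+/MYH11 against 12.03, 12.11, 12.25 and 12.25 in WT. These groups did not overlap, but the change of 0.41 (95% interval 0.26 to 0.57, limma adjusted p = 0.000345) stayed under 1.5-fold and was not called.

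Rps27l, the paralogue of the small subunit gene Rps27 and a known target of p53, was at 10.44, 10.43, 10.71 and 10.70 in Cbfb+/MYH11. In WT it was at 8.91, 8.86, 9.70 and 9.67, so that again all 4 arrays of the mutant lay above the littermates. It was higher 2.44-fold (95% interval 1.87 to 3.18, limma adjusted p = 5.85e-05). All 3 of its probe sets past the filter were called, at log2 changes of 1.29, 1.39 and 1.49. Rps27 did not pass the filter and lay between 4.75 and 5.42 on all arrays.

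Rpl7l1, a paralogue of Rpl7, was at 6.99, 7.27, 7.43 and 7.53 in Cbfb+/MYH11 against 5.30, 5.87, 6.91 and 7.05 in WT. WT array 4 lay above Cbfb+/MYH11 array 1, so the groups overlapped. The gene was higher 2.03-fold (95% interval 1.28 to 3.22, limma adjusted p = 0.0117). Its log2 change was 1.55 within arrays 1 and 2 and 0.50 within arrays 3 and 4, where it was not called. Rps4l, a copy of the X-linked Rps4x, was not called at 0.36 (limma adjusted p = 0.0062), and its sign turned to -0.02 after quantile normalization. Rpl39l and Rpl3l, paralogues with a restricted use across tissues, lay under the filter at 3.10 to 3.87 and 2.75 to 3.41.

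**Figure D1:**
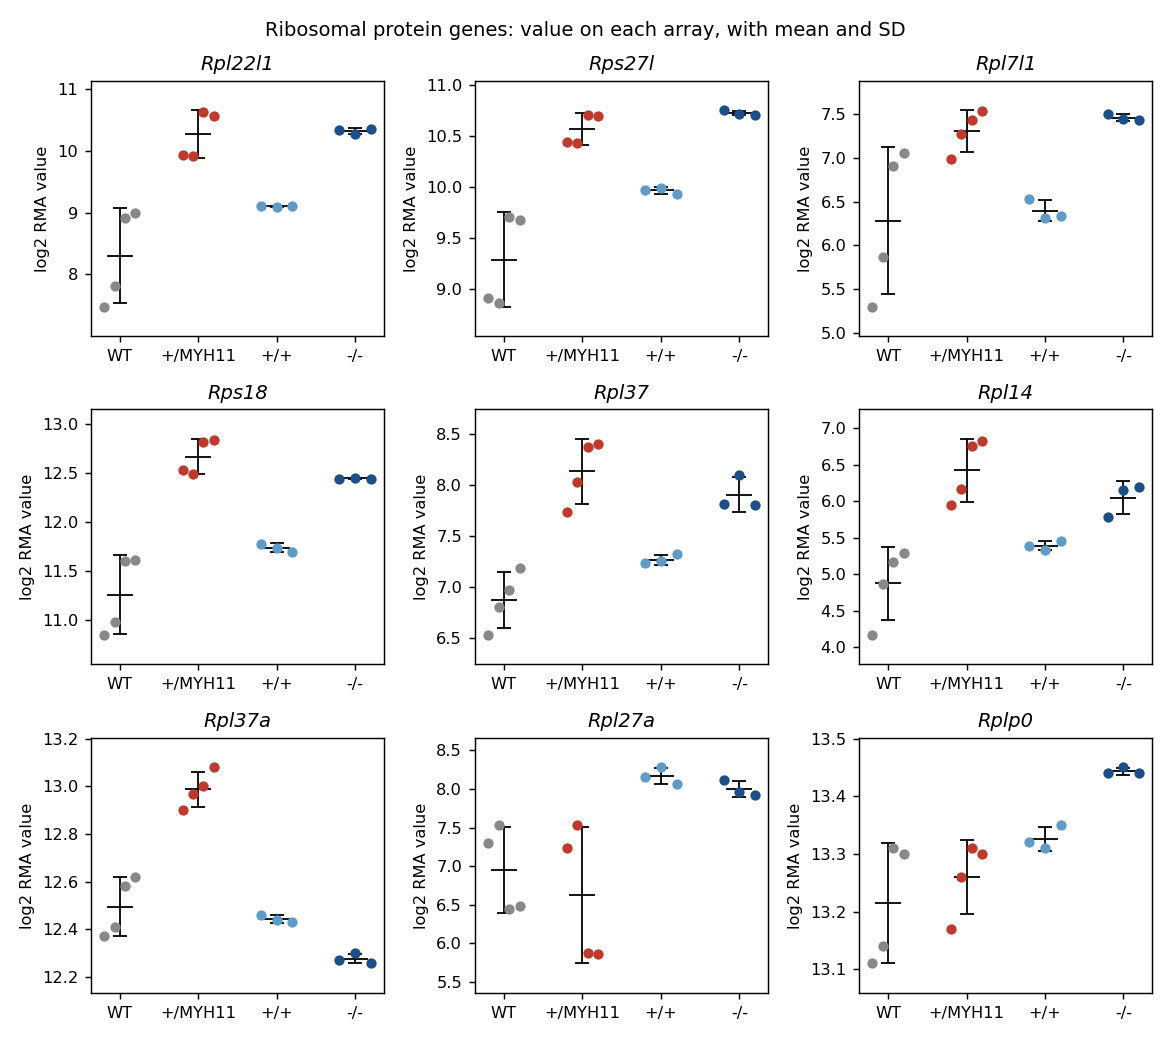
Log2 RMA value (vertical axis) of 9 ribosomal protein genes on each array, by group on the horizontal axis (WT and Cbfb+/MYH11 with 4 arrays, Cbfb+/+ and Cbfb-/- with 3); points are arrays in the order of their numbers, the bar is the mean and the whiskers are 1 SD. Rpl22l1, Rps27l, Rps18, Rpl37 and Rpl14 are above all littermate arrays in both mutants, Rpl37a in Cbfb+/MYH11 alone, and Rpl27a and Rplp0 overlap between Cbfb+/MYH11 and WT.

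Among the small subunit genes 8 of 20 tested members were called higher in Cbfb+/MYH11. Rps18, a protein of the head of the small subunit, was at 12.53, 12.49, 12.81 and 12.83 in Cbfb+/MYH11 against 10.85, 10.98, 11.60 and 11.61 in WT. The groups were separated by more than the whole range of the mutant arrays. Rps18 was higher 2.65-fold (95% interval 2.08 to 3.38, limma adjusted p = 1.58e-05), and its other 2 probe sets gave log2 changes of 1.51 and 1.15, both called. Rps19, the gene most often mutated in Diamond-Blackfan anaemia, was at 11.19, 11.21, 11.51 and 11.64 in Cbfb+/MYH11. In WT it was at 9.98, 10.06, 10.88 and 10.83, below all mutant arrays, and the change was 1.93-fold (95% interval 1.45 to 2.57, limma adjusted p = 0.00097).

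Rps6, the substrate of the S6 kinases, was at 7.30, 7.54, 7.73 and 7.75 in Cbfb+/MYH11 against 6.47, 6.66, 7.35 and 7.34 in WT. WT arrays 3 and 4 lay above Cbfb+/MYH11 array 1. Rps6 was higher 1.54-fold (95% interval 1.17 to 2.03, limma adjusted p = 0.0099) but was not called after quantile normalization or within arrays 3 and 4. This probe set is dim for Rps6, which has 8 further probe sets past the filter, shared with another symbol, at means of up to 13.50. Those changed by 0.19 to 1.03, and 1 of the 8 was called. Rps4x, the X-linked gene of a protein of the small subunit, was higher 1.55-fold (95% interval 1.23 to 1.96, limma adjusted p = 0.0034). It was not called after quantile normalization either. The call of Rps4x was also lost within arrays 3 and 4 and with the mean of its probe sets. So it was without WT array 1 or 2, or without Cbfb+/MYH11 array 4. A second, dim probe set of Rps4x (mean 5.62) changed by -0.50 and was not called. The other called members, Rps9, Rps15 and Rps3a1, were higher 1.65-fold, 1.57-fold and 1.55-fold and are named after their values were seen. None of them was called after quantile normalization.

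Several small subunit genes showed no such change. Rpsa, which encodes a protein of the small subunit also known as the laminin receptor, changed by 0.08 (95% interval -0.15 to 0.30). Rps14, a gene lost in human 5q- syndrome, an anaemia, changed by 0.13 (95% interval -0.02 to 0.28). After quantile normalization these values were -0.17 and -0.11. Rps29 and Rps10 changed by 0.00 (95% interval -0.17 to 0.18) and 0.15 (95% interval 0.01 to 0.29). None of the 4 was called.

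Of the large subunit genes 9 of 23 tested members were called higher. Rpl37, a small protein of the large subunit, was at 7.73, 8.03, 8.37 and 8.40 in Cbfb+/MYH11 against 6.53, 6.80, 6.97 and 7.19 in WT. All mutant arrays were above all WT arrays, by 2.39-fold on average (95% interval 1.88 to 3.06, limma adjusted p = 3.69e-05). The change was of like size in the pairs, 1.21 and 1.31 on the log2 scale. Rpl37 has only 1 probe set of its own, with a mean of 7.54, which is dim beside those of most members. Rpl14, a further large subunit gene, was at 5.95, 6.16, 6.75 and 6.82 in Cbfb+/MYH11 against 4.17, 4.87, 5.17 and 5.29 in WT. All 4 WT values were under the filter, and the fitted change was 2.91-fold (95% interval 2.03 to 4.19, limma adjusted p = 0.000162). Rpl14 was the 1 member that entered the test through mutant arrays alone, 5 of them, so its call is no support; without it 16 of 42 members were called (38.1%). It also has 5 probe sets shared with 1 other symbol, with means of 10.50 to 11.34. They changed by 1.29 to 1.42 and were all called.

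Rpl8, whose protein lies at the peptidyl transferase centre, was between 12.39 and 12.58 on the arrays of Cbfb+/MYH11, against 10.96, 11.04, 11.73 and 11.80 in WT. The groups did not overlap, and Rpl8 was higher 2.18-fold (95% interval 1.70 to 2.80, limma adjusted p = 9.81e-05). Rpl6 was at 12.13, 12.09, 12.30 and 12.31 in Cbfb+/MYH11 against 10.60, 11.09, 11.52 and 11.64 in WT, a change of 1.99-fold (95% interval 1.53 to 2.59, limma adjusted p = 0.000391). Rpl11, which with Rpl5 and the 5S RNA forms the particle that binds Mdm2, was higher 1.75-fold (95% interval 1.42 to 2.16, limma adjusted p = 0.000323). The call of Rpl11 was lost after quantile normalization. Rpl7a and Rpl4, named after their values were seen, were higher 1.81-fold and 1.51-fold. Rpl4 was not called after quantile normalization, and Rpl7a was.

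The stalk genes, whose proteins recruit the elongation factors, were called in neither direction. Rplp0 was at 13.17, 13.26, 13.31 and 13.30 in Cbfb+/MYH11 against 13.11, 13.14, 13.31 and 13.30 in WT. The groups overlapped, and arrays 3 and 4 had the same values in both. Its change was 0.04 (95% interval -0.11 to 0.20), and that of Rplp2 was 0.29 (95% interval 0.11 to 0.47). The 5 tested genes of the exit of the nascent chain tunnel (Rpl19, Rpl22, Rpl35, Rpl38 and Rpl39) were not called either, with changes from -0.11 for Rpl39 to 0.52 for Rpl35. Rpl7 changed by 0.34 and Rpl37a by 0.50, both short of the fold floor. Of the 11 tested genes known from Diamond-Blackfan anaemia, Rps19 and Rpl11 were called higher, and the median of the 11 was 0.37.

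**Figure D2:**
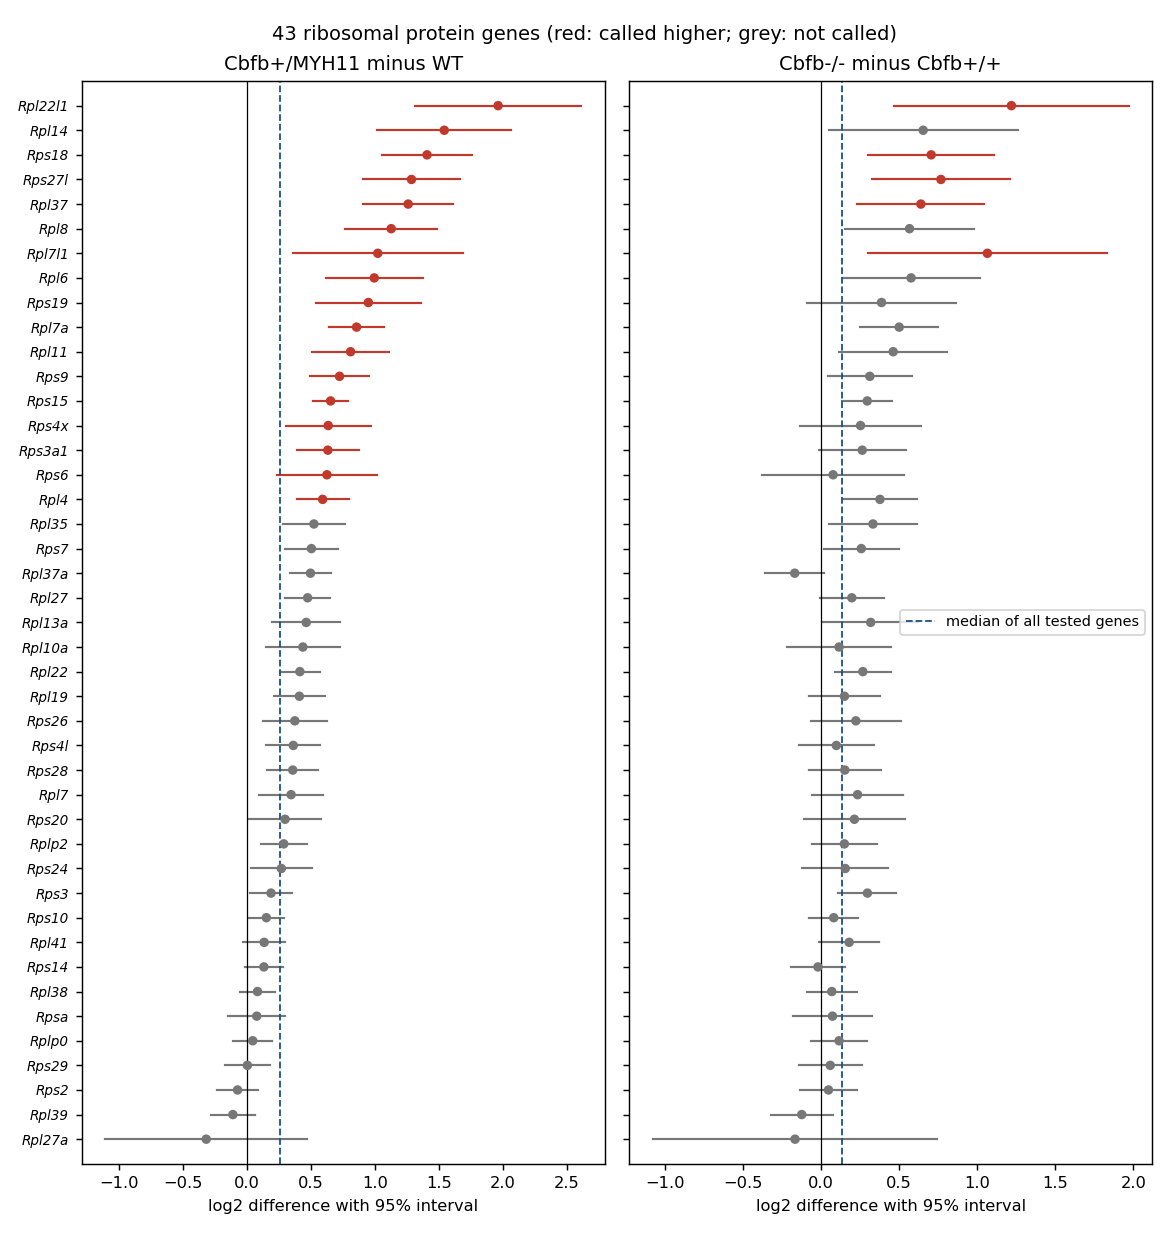
Log2 difference with its 95% interval (horizontal axis) for the 43 tested ribosomal protein genes (rows, ordered by the Cbfb+/MYH11 comparison), in Cbfb+/MYH11 minus WT (left) and Cbfb-/- minus Cbfb+/+ (right); red marks genes called higher and the dashed line is the median of all tested genes. On the left 17 genes are red and on the right 5, and the 5 are Rpl22l1, Rpl7l1, Rps27l, Rps18 and Rpl37.

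Within arrays 1 and 2, 19 members were called higher (37.0% of all genes), and within arrays 3 and 4, 11 (24.6% of all genes). Called higher in both pairs were 10 members (20.8% of all genes), and 39 of 43 changes were positive in both (56.3% of all genes). Rpl14, whose call is no support, is among the members called in each pair and in both. The members' median was 0.55 and 0.38, against 0.31 and 0.20 over all genes. The littermates differed between the pairs as well. On WT arrays 3 and 4, 10 members were higher and 1, Rpl27a, was lower than on WT arrays 1 and 2, where 24.4% and 3.77% of all genes were. On Cbfb+/MYH11 arrays 3 and 4, 2 members were higher and 1 lower than on arrays 1 and 2, where 7.78% and 1.2% of all genes were. The median shift of the members between the WT pairs was 0.35, against 0.13 over all genes.

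Rpl27a had the lowest change of the members, in a probe set that is dim for this gene, with a mean of 7.34. It was at 7.24, 7.53, 5.87 and 5.86 in Cbfb+/MYH11 against 7.30, 7.54, 6.45 and 6.49 in WT, so that arrays 1 and 2 agreed between genotypes and arrays 3 and 4 were lower in the mutant. Its change of -0.32 (95% interval -1.11 to 0.47) was not called over all arrays. Within arrays 3 and 4 it was called lower at -0.61 (limma adjusted p = 0.00067), where 6.44% of all genes were called lower. A brighter probe set of Rpl27a (mean 12.14), shared with other symbols, changed by 0.55 in Cbfb+/MYH11 over all arrays and by 0.28 in Cbfb-/-, neither called. The direction of Rpl27a thus differed between its probe sets.

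The separate fit of the pairs sees only the spread within pairs. In another fit each pair of the first cross was averaged to 1 value, and so were the 3 arrays of each group of the second cross, which left 6 values for the 4 groups. No member was then called in any comparison. In Cbfb+/MYH11 against WT, with 2 values a group, the smallest limma adjusted p among members was 0.113, and 14 members had an unadjusted p under 0.05. The share of all genes at that unadjusted level is not given here. Cbfb-/- against Cbfb+/+ was 1 value against 1, with the spread taken from the first cross alone, so its count of 0 says nothing about how stable that comparison is.

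**Figure D3:**
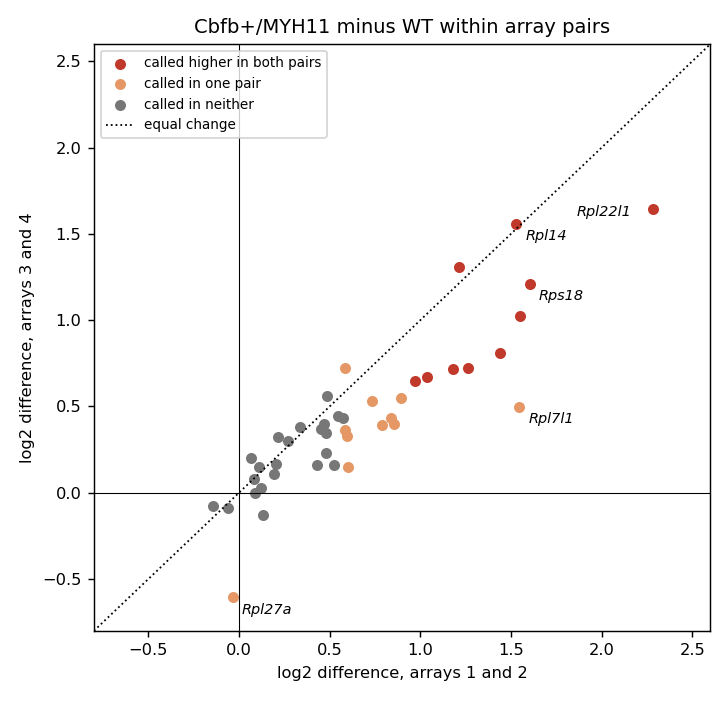
Log2 difference Cbfb+/MYH11 minus WT of the 43 tested ribosomal protein genes within arrays 1 and 2 (horizontal axis) and within arrays 3 and 4 (vertical axis), with the line of equal change; colours show in how many pairs a gene was called. The 10 genes called in both pairs lie at 0.97 or more horizontally and 0.65 or more vertically, and Rpl27a is called lower in arrays 3 and 4.

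The comparison of Cbfb-/- with Cbfb+/+ asks what goes with the loss of Cbfb, and uses other littermates. Here 5 of 43 members were called higher (11.6%) and 0 lower, where 19.5% of all tested genes were called higher and 6.65% lower. At an unadjusted limma p under 0.05, 18 members were higher and 0 lower. The members' median change was 0.23, against 0.13 over all genes, and 39 changes were positive. The shares of all genes at that unadjusted level and with a positive change are not given here, and their median was also above 0. In 36 members every Cbfb-/- array lay above every Cbfb+/+ array, which held for 44.3% of all tested genes, and in 1, Rpl37a, every array lay below (25.0%). After quantile normalization these medians were 0.13 and -0.04, and 3 members were called, Rpl22l1, Rps18 and Rps27l, with 13.6% of all genes called higher. Of all calls 74.6% were higher as deposited and 52.7% after quantile normalization. Without the fold floor 13 members were called higher (30.2%), and 28.3% of all genes.

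Rpl22l1 again had the largest change. It was at 10.34, 10.27 and 10.36 in Cbfb-/- and at 9.11, 9.09 and 9.10 in Cbfb+/+, with a gap between the groups far wider than either range. It was higher 2.33-fold (95% interval 1.38 to 3.92, limma adjusted p = 0.0148). Rpl22 was at 12.67, 12.62 and 12.66 against 12.41, 12.36 and 12.38, a change of 0.27 (95% interval 0.09 to 0.45) that was not called.

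Rpl7l1 was at 7.5, 7.44 and 7.43 in Cbfb-/- and 6.53, 6.31 and 6.34 in Cbfb+/+, higher 2.09-fold (95% interval 1.23 to 3.56, limma adjusted p = 0.0286). Its second probe set past the filter was not called, at 0.39 on the log2 scale. The call was lost when any 1 of the 6 arrays of this comparison was left out, after quantile normalization and with the mean of its probe sets. Rps27l was at 10.75, 10.72 and 10.71 against 9.97, 9.99 and 9.93, higher 1.70-fold (95% interval 1.25 to 2.31, limma adjusted p = 0.0109), and all 3 of its probe sets were called. For both genes the arrays of the groups did not overlap. Of the 4 tested paralogues 3 were called higher in each mutant, Rpl7l1 in Cbfb-/- with the losses just given, and Rps4l was not, at 0.10 here, with the sign turned to -0.13 after quantile normalization.

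Rps18 was at 12.44, 12.45 and 12.44 in Cbfb-/- and 11.78, 11.74 and 11.69 in Cbfb+/+. The groups did not overlap, and the change was 1.63-fold (95% interval 1.23 to 2.16, limma adjusted p = 0.0108). Of its other 2 probe sets, 1 was called at 0.71 on the log2 scale and 1 was not, at 0.48 (limma adjusted p = 0.264). The call of Rps18 was lost with the mean of its probe sets. Rpl37 was at 7.81, 8.10 and 7.80 against 7.23, 7.25 and 7.32, a change of 1.56-fold (95% interval 1.18 to 2.06, limma adjusted p = 0.0168). The call of Rpl37 was lost without Cbfb-/- array 2, where 3 members were called, and after quantile normalization.

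Rpl14 was at 5.79, 6.15 and 6.20 against 5.39, 5.33 and 5.45, and its change of 0.65 was not called (limma adjusted p = 0.0732). With the array number as a block it was called (limma adjusted p = 0.00316). All its Cbfb+/+ values and 1 of its Cbfb-/- values were under the filter. Of its 5 shared probe sets 4 were called higher here, with changes of 0.51 to 0.92 over the 5. Rpl6 and Rpl8 changed by 0.58 and 0.57, just under the fold floor of 1.5, at limma adjusted p = 0.0358 and 0.03. Of the 11 genes known from Diamond-Blackfan anaemia 0 were called, with a median of 0.21, and Rps19 was at 0.39 (95% interval -0.09 to 0.86). Rplp0 and Rplp2 changed by 0.12 and 0.15, Rpsa by 0.07, Rps14 by -0.02 and Rps6 by 0.08.

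All 5 members called higher in Cbfb-/- were also called in Cbfb+/MYH11, which is 29.4% of the 17 called there. Over all tested genes, 770 were called higher in both mutants, which is 34.1% of those in Cbfb+/MYH11 and 53.4% of those in Cbfb-/-. The change was larger in Cbfb+/MYH11 for 36 of 43 members. That share is not given for all tested genes, whose median change was also larger there, 0.26 against 0.13 in Cbfb-/-. The 12 members called in Cbfb+/MYH11 and not in Cbfb-/- are not shown to differ, since the test of the difference called none of them. That test called 1 member, Rpl37a, where 14.9% of all genes were called with a higher effect in Cbfb+/MYH11 and 6.07% with a lower one.

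Rpl37a, a zinc-binding protein of the large subunit, was at 12.90, 12.97, 13.00 and 13.08 in Cbfb+/MYH11 against 12.37, 12.41, 12.58 and 12.62 in WT. It was at 12.27, 12.30 and 12.26 in Cbfb-/- and 12.46, 12.44 and 12.43 in Cbfb+/+. All Cbfb+/MYH11 arrays lay above their littermates and all Cbfb-/- arrays below theirs. The changes of 0.50 and -0.17 were not called by themselves, and their difference was 0.66 (95% interval 0.41 to 0.91, limma adjusted p = 0.00106). A second probe set of Rpl37a changed by 0.50 and 0.20, and the mean of its probe sets was not called in the difference. With the array number as a block 5 members were called in the difference (16.4% of all genes), all with a larger rise in Cbfb+/MYH11: Rpl37a, Rpl14, Rps18, Rpl37 and Rpl22l1. Their limma adjusted p under the block was 0.00151, 0.00374, 0.00731, 0.00638 and 0.0269. The call of Rpl14, which entered the test through mutant arrays alone, is no support here either. Without WT array 4, which shares its pair with WT array 3, 4 members were called, and without WT array 3 or Cbfb+/MYH11 array 1, 2.

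The wild types of both crosses differ in no allele of Cbfb, so their comparison shows how far pools without a mutation stand apart. Cbfb+/+ exceeded WT for 4 called members and fell short for 0, where 5.48% of all tested genes were called higher and 5.76% lower. At an unadjusted limma p under 0.05 there were 19 and 0, and the shares of all genes at that level are not given here. The members' median difference was 0.22, against -0.0023 over all genes. Rpl27a was higher 2.33-fold (limma adjusted p = 0.0371), Rps6 1.81-fold (limma adjusted p = 0.00677), Rps27l 1.60-fold (limma adjusted p = 0.0199) and Rps4l 1.55-fold (limma adjusted p = 0.000978) in Cbfb+/+. For Rps27l this difference of 0.68 between wild types is near its change of 0.77 in Cbfb-/-. Its call here was lost without WT array 1 or 2 or any Cbfb+/+ array, with the 2 groups fitted alone, and against WT arrays 3 and 4. That of Rps6 was lost with the 2 groups alone and against WT arrays 3 and 4, and that of Rps4l without WT array 1. The shared probe sets of Rps6 and Rpl27a were not called between the wild types, at -0.04 to 0.49 and 0.08. Against WT arrays 1 and 2 alone 14 members were higher (14.2% of all genes). Against WT arrays 3 and 4 alone 2 were higher (6.95%) and 1, Rpl7l1, was lower (19.7%). The call of Rpl27a was lost when WT array 3 or 4 or any Cbfb+/+ array was left out, and without Cbfb-/- array 3. With the mean of the probe sets only 41 members passed the filter, so Rps6 and Rpl27a, not called there, may not have been tested.

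Many members give a signal high on the scale of the array. By their tested probe sets, no member had a group mean within 1 log2 unit of the array maximum. Of the 43, 28 came within 2. The closest were Rps29, Rplp0 and Rps10, with highest group means of 13.45, 13.44 and 13.41. Of the 28 within 2 units, 6 were called higher in Cbfb+/MYH11, with a median change of 0.39, and 1 in Cbfb-/-, with a median of 0.21. Of the 15 further below, 11 and 4 were called, with medians of 0.95 and 0.46. The 11 include Rpl14, whose call is no support. These bands rest on probe sets that name 1 gene, and Rpl14, Rpl27a, Rpl39 and Rps6 of the 15 have brighter shared ones. The shared probe sets of Rps2, with means of 13.65 and 13.67, lie nearer to the maximum than any of the tested ones. The 23 other tested genes within 1 to 2 units of the maximum had medians of -0.23 and -0.16, with 0 called higher and 5 and 2 called lower. Among all tested genes further below, 30.7% and 19.7% were called higher.

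Probe sets of the same gene gave a second view of this. Of the members, 21 kept several probe sets after the filter, and in 19 of them all probe sets changed with the same sign in Cbfb+/MYH11. The dimmest probe set changed more than the brightest in 14 of 21 genes in Cbfb+/MYH11 and in 10 of 21 in Cbfb-/-. Rps10, for which the probe set with the highest mean (13.2) changed by 0.15, had others with means of 12.85, 12.48, 11.56 and 10.73 that changed by 0.29, 0.45, 0.68 and 0.16. Rpl13a had changes of 0.46, 0.42, 0.70 and 0.90 from the brightest to the dimmest probe set. In 6 genes the brightest probe set was not called in Cbfb+/MYH11 while another was. Of all 83 probe sets of members past the filter, 33 were called higher in Cbfb+/MYH11 and 11 in Cbfb-/-, where 30.7% and 20% of all tested probe sets were. Whether the scale compresses the changes of the brightest members was not tested.

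**Figure D4:**
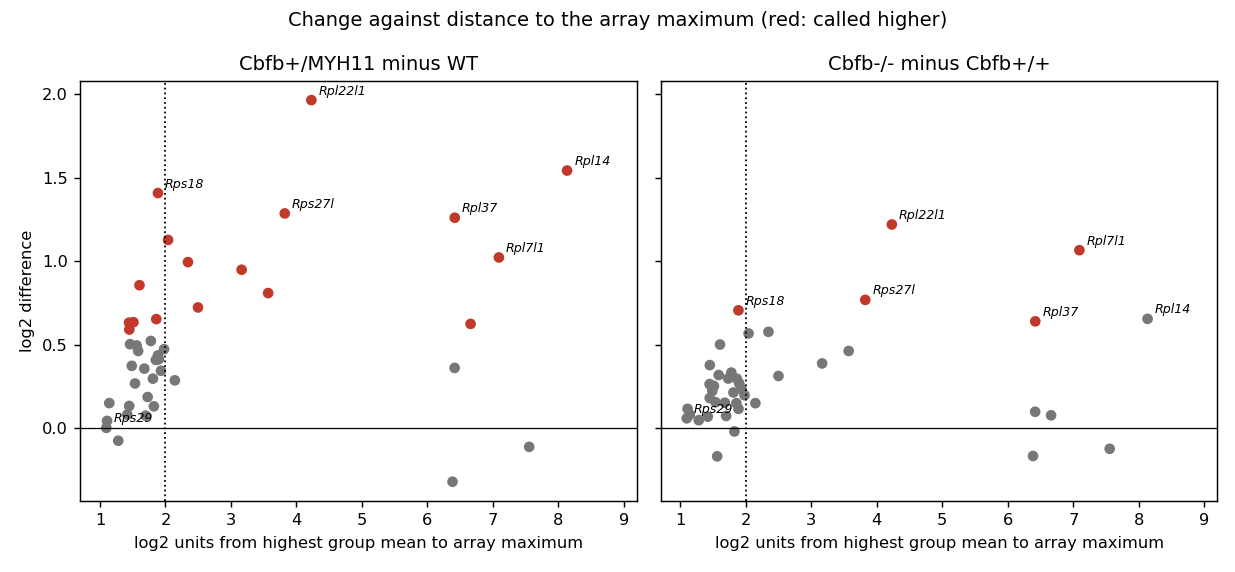
Log2 difference (vertical axis) of the 43 tested ribosomal protein genes against the distance of their highest group mean from the array maximum of 14.55 (horizontal axis, log2 units), for Cbfb+/MYH11 minus WT (left) and Cbfb-/- minus Cbfb+/+ (right); red marks genes called higher and the dotted line a distance of 2. Of the 28 genes left of the dotted line 6 are red on the left and 1 on the right, and of the 15 genes right of it 11 and 4.

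The 6 members under the filter were Rpl12, Rpl39l, Rpl3l, Rps16, Rps25 and Rps27. Rps16 lay between 2.79 and 4.10 on all arrays and Rps25 between 4.67 and 6.03. Rpl12 lay between 3.82 and 5.95. The low values are those of their unshared probe sets and not of the genes, since Rps16, Rpl12 and Rps25 also have bright shared ones. Those of Rps16 (means of 12.33 and 13.36) changed by 0.60, called, and 0.30 in Cbfb+/MYH11. That of Rps25 (mean 11.64) was called higher at 1.05, and those of Rpl12 (12.24 and 11.99) changed by 0.34 and 0.35, not called. None of these was called in Cbfb-/-. The ribosomal protein genes that share probe sets added 24 tested genes. Of these, 11 were called higher in Cbfb+/MYH11 (median 0.57) and 2 in Cbfb-/- (median 0.26), with 0 lower. Of the 7393 genes tested without them, 30.5% and 19.5% were called higher. The 2 called in Cbfb-/- were Rpl3 and Rpl30, and the largest change in Cbfb+/MYH11 was that of Rpl3, at 1.36. These probe sets may also read pseudogenes or predicted genes, so their values are uncertain.

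The promoter letters did not divide the called members from the rest. Of the 25 tested members with CGGAAG in their window, 10 were called higher in Cbfb+/MYH11, with a median of 0.50, and of the 12 without it 6, with a median of 0.55. Of the 7 tested members with the pyrimidine start printed above, 3 were called, Rps18, Rpl14 and Rps6, with a median of 0.52 over the 7. The call of Rpl14, which entered the test through mutant arrays alone, is no support, and it is also among the 6 without CGGAAG. The 30 tested members without it at the annotated base had 13 calls and a median of 0.48, and some of them may have such a start nearby. In Cbfb-/- the medians were 0.15 with the pyrimidine start and 0.26 without it.

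Other genes of ribosome production and translation give the setting. Of 23 tested assembly genes 17 were called higher in Cbfb+/MYH11 and 14 in Cbfb-/-, with medians of 1.06 and 0.71 and 0 called lower. Among them Fbl, which methylates ribosomal RNA, changed by 1.43 and 1.52, and the nucleolar gene Ncl by 1.12 and 1.21. Of 31 translation factors 17 and 14 were called higher, with medians of 0.64 and 0.54, among them Eif4e, the cap-binding protein, at 1.15 and 0.79. Of 73 genes of the mitochondrial ribosome 60 and 34 were called higher, with medians of 0.97 and 0.59. After quantile normalization the assembly genes had 14 and 9 calls, the translation factors 9 and 8, and the mitochondrial genes 40 and 18.

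A further list held genes that act on the TOP messages. Of 11 tested genes of TOR and TOP control 1 was called higher in Cbfb+/MYH11, Rheb at 1.18. In Cbfb-/- Akt1s1 was called higher at 0.61 and Eif4ebp1, the inhibitor of Eif4e, lower at -0.61. After quantile normalization Akt1s1 was no longer called in Cbfb-/- (0.38) and was called lower in Cbfb+/MYH11 (-0.62), while Rheb and Eif4ebp1 were still called. Larp1 changed by 0.50 and -0.51, neither of them called, but the difference was. After quantile normalization Larp1 was called lower in Cbfb-/-, at -0.71. Fau, a small subunit protein gene outside the naming rule, was called higher in Cbfb+/MYH11 at 0.79 and was at 0.41 in Cbfb-/-. The elongation factor genes of the translation list, Eef1a1, Eef1b2, Eef1d and Eef2, changed by 0.24, 0.60, 0.53 and 0.44 in Cbfb+/MYH11 and by 0.14, 0.17, 0.54 and 0.40 in Cbfb-/-, none of them called. Tpt1, which encodes the translationally controlled tumour protein and has a TOP message, changed by -0.08 and 0.03.

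**Figure D5:**
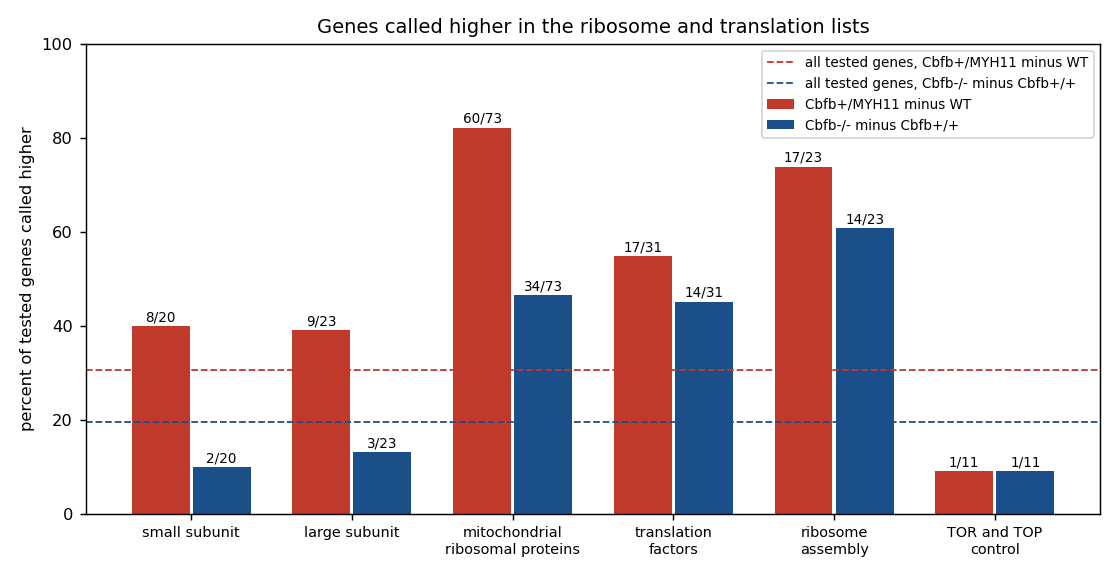
Percent of tested genes called higher (vertical axis, from 0) in each list (horizontal axis), red for Cbfb+/MYH11 minus WT and blue for Cbfb-/- minus Cbfb+/+; numbers over the bars are called and tested genes, and the dashed lines are the shares over all tested genes, 30.5% and 19.5%. The cytosolic ribosomal proteins (8 of 20 and 9 of 23; 2 of 20 and 3 of 23) lie nearer to the lines than the mitochondrial ones (60 and 34 of 73).

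Markers of cell types and of growth moved between the same groups, and their part in the members' changes was not tested. Counts are of tested genes, and the mean levels are over all genes of a list on the array. Proliferation markers were called higher for 4 of 4 genes in Cbfb+/MYH11 and 1 of 4 in Cbfb-/-. Their mean level over the arrays was 9.95 to 9.98 in Cbfb+/MYH11, 7.47 to 8.94 in WT, 9.39 to 9.47 in Cbfb-/- and 8.51 to 8.59 in Cbfb+/+. Platelet markers were lower for 5 of 7 genes in Cbfb+/MYH11 and 7 of 7 in Cbfb-/-, and their mean was 5.93 to 6.07 against 7.36 to 9.16, and 6.34 to 6.40 against 8.54 to 8.64. Macrophage markers were lower for 6 and 7 of 7 genes, and over 8 genes, with the untested Cd68, the means were 4.82 to 4.91 against 5.80 to 7.89, and 4.96 to 5.24 against 7.33 to 7.41. Mast cell markers were higher for 4 of 4 genes in Cbfb+/MYH11, and over 5 genes, with the untested Mcpt8, the mean was 7.18 to 7.61 against 3.97 to 4.44 in WT. In Cbfb-/- 1 of 4, Cpa3, was lower, and the mean was 3.84 to 4.09 against 4.31 to 4.4.

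Neural markers were called higher for 3 of 6 genes in Cbfb+/MYH11, with a mean of 4.91 to 7.06 against 3.32 to 4.87. In Cbfb-/- all 6 were higher, with a mean of 7.74 to 7.95 against 3.60 to 3.90. Liver or visceral endoderm markers were lower for 3 of 6 in Cbfb+/MYH11, at 5.29 to 6.62 against 5.70 to 8.26, and higher for 4 of 6 in Cbfb-/-, at 8.34 to 8.53 against 7.03 to 7.05. Red cell markers were called for 0 of 6 genes in both comparisons, and over 7 genes, with the untested Hba-a1, the mean was 11.7 to 11.9 on every array.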

How the data were processed

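The deposited table holds log2 values, for which the submitters' processing notes name RMA and Affymetrix Expression Console, and it was used as deposited by the authors; the versions are not given in the sources used here. Total RNA (5 micrograms) had been labelled with biotin, per the labels. The table holds 45101 probe sets and 0 columns of other series. The platform annotation gave 34958 probe sets with 1 symbol, 932 with several and the rest with none.

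All 14 arrays were fitted in 1 limma 3.58.1 model (R 4.3.3) of 4 groups with no covariate, and p-values were adjusted over all 7393 tested genes of a comparison. Intervals are 95% intervals of that fit. Their precision is limited by the number of arrays. The script was tested on simulated data.

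Arrays with the same number in the labels deviated together in the first cross (correlations 0.521, 0.407, 0.499 and 0.499), though 1 with 2 and 3 with 4 did so too; in the second cross the values were 0.034, 0.011 and 0.017.

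Members and lists were chosen with earlier results of these data known. Named members are the 8 with the largest called rise and fall per mutant, 4 each of the difference and of the wild types, the 3 nearest to the array maximum, and fixed paralogues, stalk genes and 5S particle genes, Rpsa, Rps6, Rps14 and Rps19. Of the fixed genes Rpl3, Rpl5, Rpl10, Rpl10l, Rpl36a, Rpl36al, Rplp1 and Rps27rt have no probe set of their own. Probe sets shared with other symbols, and the split by distance to the maximum, were added after the data were seen. Alternatives were the scaling, filter, probe set choice, blocks, array pairs, eBayes trend, arrays left out and no fold floor.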

Additional observations from a re-analysis of the deposited data

Results flagged for a closer look

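The changes of the mutants against their own littermates differed for Rpl37a by a test of the difference itself. That test called 14.9% of all tested genes in the same direction. Neither change of Rpl37a was called by itself. The difference was 0.66 on the log2 scale (limma adjusted p = 0.00106), with changes of 0.50 in Cbfb+/MYH11 and -0.17 in Cbfb-/-. It rests on 1 probe set: a second one changed by 0.50 and 0.20, and with the mean of the probe sets Rpl37a was not called. With the arrays averaged to 6 values it was not called either.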

How the results depend on the processing

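For Cbfb+/MYH11 against WT the 17 members called higher became 10 after quantile normalization, 11 (and 1 lower) within arrays 3 and 4, 0 with the pairs averaged, 28 of 67 with shared probe sets added and 32 with no fold floor. The median of 0.46 became 0.24 after quantile normalization. Leaving out 1 array at a time gave 13 to 17 calls and medians of 0.38 to 0.52. For Cbfb-/- against Cbfb+/+ the 5 became 3 after quantile normalization and 13 with no fold floor, and 3 to 6 with 1 array left out. The median of 0.23 became 0.13 after quantile normalization and 0.29 after centring. For the difference, 1 call became 9 within arrays 1 and 2 (23.4% of all genes) and 3 within arrays 3 and 4 (17.3%). It became 2 with no fold floor (18.5% of all genes), with the filter at 7 and with the eBayes trend, and 1 to 4 with 1 array left out. The shares of all genes with the filter at 7, with the trend and with arrays left out are not given here. With the replicate block (16.4% of all genes), and with the array pair as a block, the count for the difference became 5. Under the replicate block the other counts were 17, 6 and 5, against 31.5%, 22.1% and 5.8% of all genes. For the wild types, 4 became 2 with their groups alone, 14 within arrays 1 and 2 (14.2% of all genes), and 8 with no fold floor (13.9%). The count became 2 (and 1 lower, with a median of 0.03) within arrays 3 and 4, and 2 to 6 with 1 array left out. With the mean of the probe sets, where 41 members were tested, it became 2. In these 3 comparisons averaging the arrays to 6 values gave 0 calls, but it leaves each group of the second cross with 1 value and so says nothing about their stability.

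Signs turned for members that were not called. In Cbfb+/MYH11, Rps4l (-0.02), Rps14 (-0.11) and Rpsa (-0.17) turned after quantile normalization, Rpsa with the mean of its probe sets (0.00, just below 0), and Rps29 within arrays 3 and 4 (-0.13) and with 1 array left out (-0.05 to 0.05, with -0.01 and -0.04 among the values). In Cbfb-/-, Rps6 (-0.14), Rps4l (-0.13) and Rpsa (-0.01) turned after quantile normalization, Rps14 after centring (0.04) and Rps4x with the mean of its probe sets (-0.02). The causes were not tested. The unshared probe sets of members under the filter have too little signal to read a change.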
